A study of Mus musculus with 11 samples.

Results

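RNA-seq counts of 9 mouse genes of iron and copper handling were followed through sorted cells of the pubertal mammary gland. The genes were the ferroxidase Cp, the carriers Trf, Ltf and Lcn2, the importers Tfrc and Slc11a2, the ferritin subunits Fth1 and Ftl1 and the exporter Slc40a1. They were taken by symbol out of 27179 gene identifiers, and all 9 were among the 17370 genes that passed the filter on low counts. Cp was put on the list because it is lower in basal cells of terminal end buds than in basal cells of ducts in these same libraries. Its values are therefore given as a description wherever basal libraries enter, and Cp was tested only in luminal cells.

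Terminal end buds (TEBs) are the bulbous growing tips of the ductal tree in puberty. TEBs and ducts were micro-dissected from Ecadherin-GFP females on the C57BL/6 background at 5 weeks of age, and all groups carried this reporter. From each structure, cells negative for blood and endothelial lineage markers and positive for CD29 and CD24 were sorted into luminal cells, bright for GFP, and basal cells, dim for GFP. This gave 3 libraries of basal duct, 3 of basal TEB, 2 of luminal duct and 3 of luminal TEB, where each replicate is a pool of at least 2 mice and a luminal duct sample was discarded by the authors. p-values therefore measure the spread between pools, and the luminal gate holds luminal progenitor and mature luminal cells together.

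Iron travels outside cells bound to transferrin, the product of Trf, and enters through the transferrin receptor, Tfrc, after which the transporter Slc11a2 moves it out of the endosome. Cells store iron in ferritin shells built from Fth1 and Ftl1 subunits and release it through ferroportin, Slc40a1. Ceruloplasmin, the product of Cp, is a copper protein that oxidises exported iron so that transferrin can bind it. Lactoferrin (Ltf) and lipocalin 2 (Lcn2, which binds bacterial siderophores) are secreted proteins that withhold iron from microbes, and transferrin and lactoferrin are also proteins of milk. Several mRNAs of this system carry the iron-responsive element, a hairpin that iron regulatory proteins bind when iron is scarce, blocking translation from the 5′ end or protecting the mRNA from the 3′ end.

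The hairpins found in the members are printed because they mark the mRNAs that iron regulatory proteins can bind. The UTRs of GENCODE M21 transcripts (build mm10) were searched, on the transcript strand only, for the loop CAGTGN closed by 5 paired bases on each side, with a C just 5′ of this stem. A match was present in the 5′ UTR of 31 of 20580 genes (0.151%) and in the 3′ UTR of 129 of 20962 genes (0.615%). Among the 9 members, Fth1, Ftl1 and Slc40a1 each had 1 match in the 5′ UTR, and Tfrc had 4 in the 3′ UTR. Each line gives 27 bases in the direction of the mRNA, with the loop in capitals.
Fth1, 5′ UTR, chr19:9982733-9982759, plus strand: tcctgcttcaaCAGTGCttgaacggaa
Ftl1, 5′ UTR, chr7:45459780-45459806, minus strand: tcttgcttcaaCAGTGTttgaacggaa
Slc40a1, 5′ UTR, chr1:45925466-45925492, minus strand: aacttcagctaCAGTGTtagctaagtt
Tfrc, 3′ UTR, chr16:32631220-32631246, plus strand: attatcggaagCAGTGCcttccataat
Tfrc, 3′ UTR, chr16:32631599-32631625, plus strand: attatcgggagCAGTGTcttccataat
Tfrc, 3′ UTR, chr16:32631664-32631690, plus strand: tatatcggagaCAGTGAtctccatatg
Tfrc, 3′ UTR, chr16:32631711-32631737, plus strand: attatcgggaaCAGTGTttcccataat
The other 5 members (Cp, Trf, Ltf, Lcn2 and Slc11a2) had no match, which says only that these letters are not in their annotated UTRs. A stem with a bulge would not have been found.

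The libraries held between 27989137 and 49221436 counts. Mitochondrial genes took 4.34% to 10.9% of the counts in 8 libraries, 37.5% in basal TEB replicate 1, 28.5% in luminal duct replicate 3 and 17.8% in basal TEB replicate 3. Results are therefore also given without basal TEB replicate 1 and luminal duct replicate 3 where that alters a call. Every fit without a luminal duct replicate keeps 1 library in that group, and its FDR takes the spread from the other groups. Lineage markers followed the labels of the sort, and no library stood with the other cell type. The summed level of 6 basal markers was 14660 to 18419 CPM (counts scaled to the TMM-adjusted library size) in basal duct and 5241 to 8159 CPM in basal TEB, against 80.7 to 222 CPM in luminal duct and 13.1 to 24.1 CPM in luminal TEB. In the same order of groups, 6 mature luminal markers summed to 27.5 to 53.3, 33.7 to 48.9, 3830 to 6321 and 3870 to 5083 CPM, and 6 luminal progenitor markers to 33.2 to 79.5, 64.6 to 95.7, 745 to 862 and 376 to 478 CPM.

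Per length of transcript, the 9 genes covered more than 2 orders of magnitude. Averaged over the 11 libraries, Fth1 stood at 593 RPKM and ranked 76 of the 17370 genes tested, Lcn2 at 345 RPKM ranked 159 and Ftl1 at 181 RPKM ranked 315. Then came Trf at 42.5 RPKM, Tfrc at 15.9, Cp at 15.3, Ltf at 8.81, Slc11a2 at 4.90 and Slc40a1 at 3.83. Together the 9 genes took 0.0699% to 0.195% of the counts of a library, the highest share in a basal duct library and the lowest in basal TEB replicate 1.

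**Figure D1:**
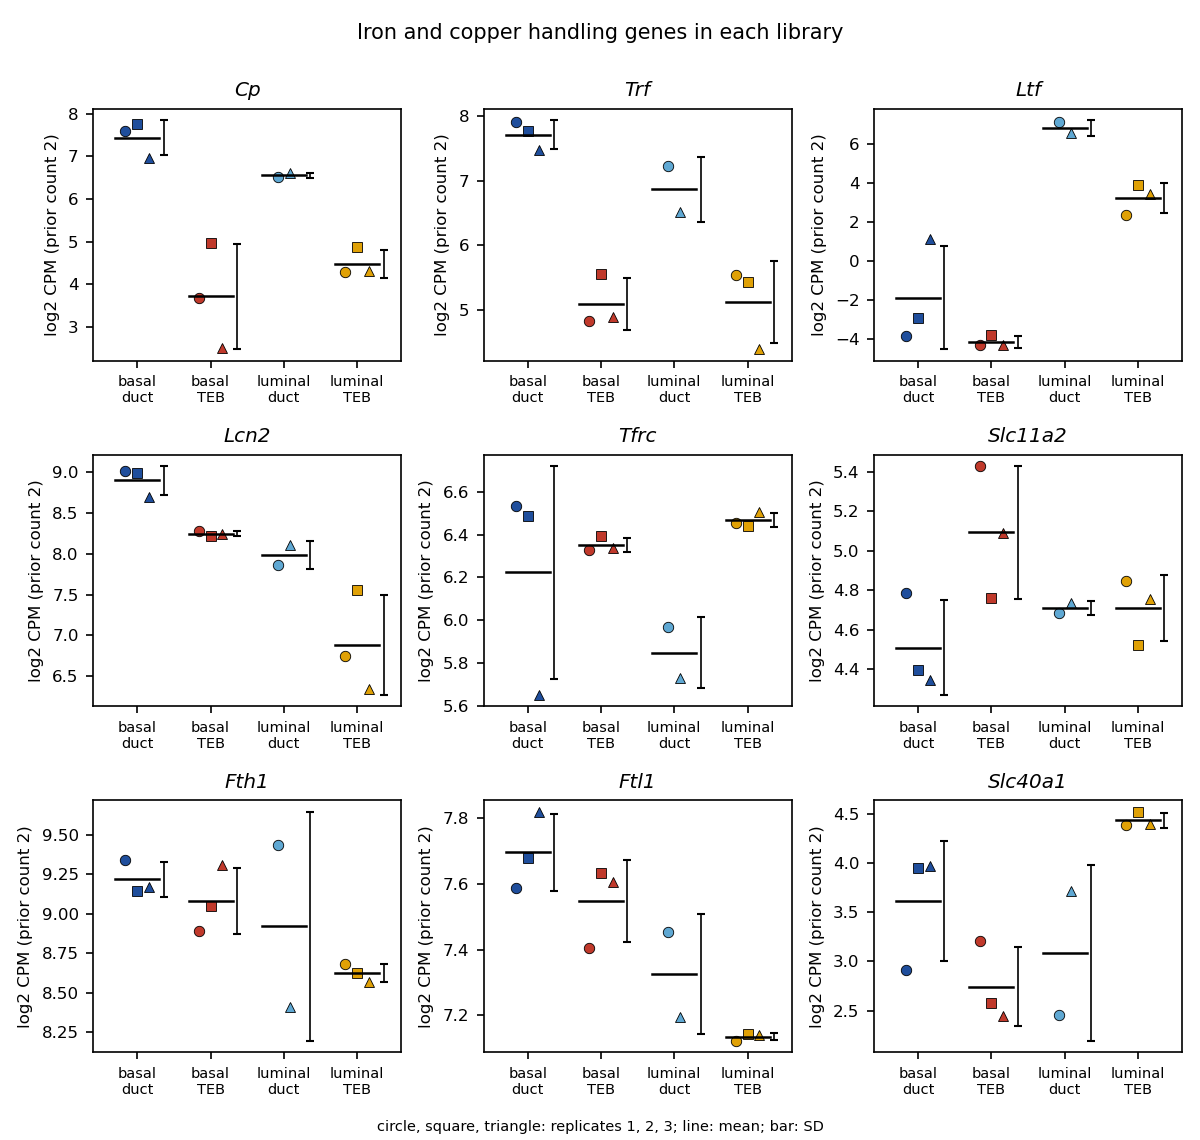
Each panel plots log2 CPM (prior count 2, each panel with its own scale) of 1 gene in the 11 libraries by group, with circles, squares and triangles for replicates 1, 2 and 3, a line at the mean and a bar of 1 SD. Cp and Trf were lower in every TEB library than in every duct library of the same cell type, and the basal values of Cp chose it. Ltf had 0 to 3 counts in 5 of 6 basal libraries, and Fth1 and Slc11a2 overlapped between TEB and duct in both cell types.

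For the TEBs and ducts, the question was which of these genes differ between the growing tip and the duct left behind it. In luminal cells, 1 of the 9 members (Trf, lower in TEBs) passed a false discovery rate (FDR) of 0.05 in the quasi-likelihood F test of edgeR, adjusted by the Benjamini-Hochberg method, as did 1.41% of all genes tested (0.639% higher and 0.771% lower). The CPM of TEB and duct libraries did not overlap for 7 of 9 members, 2 higher (Tfrc and Slc40a1) and 5 lower, where 43.7% of all genes showed no overlap (26.2% higher and 17.4% lower). In basal cells, 1 of the 8 members tested (again Trf, lower) passed, against 1.32% of all genes (0.167% higher and 1.16% lower). There 2 of 8 (Trf and Lcn2, both lower) did not overlap, against 20.8% of all genes (8.88% higher and 11.9% lower). No member passed the test of a difference between the basal and the luminal change (0 of 8 by edgeR, 0 by DESeq2 and 0 by limma voom). By the same edgeR test 0.443% of all genes passed (0.0806% higher and 0.363% lower). By edgeR, 1 of 8 members (Slc40a1) had an unadjusted p below 0.05, as did 14.7% of all genes.

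Transferrin mRNA was lower in TEBs in both cell types. Trf (chromosome 9, 103208876 to 103230286) stood at 240, 218 and 177 CPM in the basal duct libraries and at 28.3, 47.0 and 29.5 CPM in basal TEB. Every basal TEB library was thus below every basal duct library. Trf fell in basal TEBs by 2.60 on the log2 scale (SE 0.33, edgeR FDR 0.00325), a 6.05-fold lower level, and it passed under all 21 alternatives tried. In luminal cells it was at 149 and 91.1 CPM in the duct and at 46.7, 43.2 and 20.96 CPM in TEBs, again without overlap. The luminal fall of 1.70 on the log2 scale (SE 0.35, edgeR FDR 0.0378) kept its direction in all 21 alternatives but passed in only 12 of them. Without luminal duct replicate 1, which leaves 1 luminal duct library, the luminal difference was -1.30. The FDR was 0.0749, 0.0919 and 0.119 on leaving out luminal TEB replicates 1, 2 and 3 in turn. It was 0.0646 and 0.0582 without basal duct replicates 1 and 3, and 0.0609 without basal TEB replicate 3. It was 0.0654 when the luminal groups were fitted alone and 0.225 with library size alone.

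Between basal and luminal cells, no difference in transferrin mRNA passed. In TEBs the 2 cell types overlapped in Trf, with a basal minus luminal difference of -0.08 on the log2 scale (SE 0.31, edgeR FDR 0.888). In ducts all basal libraries were above both luminal ones, with a difference of 0.82 (SE 0.36) that did not pass (edgeR FDR 0.126; 0.045 with limma voom). In bulk libraries, fewer cells of a type and less RNA per cell cannot be told apart, which holds for every value here. GENCODE lists the gene Gm20425 on the strand of Trf with 2108 bases of Trf's exons (63.5%) in common, so reads of these transcripts cannot be told apart, and Gm20425 had no entry of its own in the counts.

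Cp (chromosome 3, 19956933 to 20009750) showed the pattern for which it was chosen. It stood at 193, 216 and 126 CPM in basal duct and at 12.7, 31.4 and 5.60 CPM in basal TEB. Basal TEB replicate 2, the library with the lowest mitochondrial share of its group, was the highest of the 3. These basal values chose the gene, so the gap between the groups is a description. The fitted change in basal cells was -3.42 on the log2 scale, a 10.7-fold lower level in TEBs, given with no test. In luminal cells, whose libraries did not enter the choice, Cp was at 91.2 and 97.1 CPM in the duct and at 19.4, 29.1 and 19.7 CPM in TEBs. The 2 groups did not overlap. The difference of -2.05 on the log2 scale (SE 0.51) did not pass the edgeR test (FDR 0.0754), and the FDR ran from 0.00298 to 0.253 over 21 alternatives, of which 7 passed, among them DESeq2 (0.00298), limma voom (0.0176), the fit of luminal groups alone (0.0282) and the fits without basal TEB replicate 2 (0.0234) or 3 (0.0342).

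Cp was also counted in luminal libraries. The luminal duct libraries held 51.2% and 54.6% of the mean Cp level of basal duct and 70.5% and 43.0% of its Trf level, while their summed basal markers stood at 0.481% and 1.32% of the basal duct mean. The basal duct mean of Cp is among the values that chose the gene, and the part of basal cells in the luminal values was not tested. In ducts Cp was higher in every basal than in every luminal library, by 0.92 on the log2 scale, and in TEBs the cell types overlapped, with a difference of -0.45. Both are descriptions, since basal libraries chose the gene. From the gene counts it is unknown whether the transcripts encode the secreted or the membrane-anchored form of ceruloplasmin.

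Hps3, a gene of lysosome-related organelles on the opposite strand (chromosome 3, 19995945 to 20035334), overlaps Cp. In the GENCODE models, whose ends differ from the RefSeq ones printed here, the overlap is 13201 bases. Of these, 108 are exonic in both and make up 1.13% of the 9566 GENCODE exon bases of Cp. The counted Cp gene has 4993 bases. Hps3 was at 29.6, 28.9 and 21.5 CPM in basal duct and 16.1, 14.9 and 12.1 CPM in basal TEB, so that these groups did not overlap. Its difference of -0.89 (SE 0.27) did not pass the edgeR test (FDR 0.161; 0.0139 with DESeq2). In luminal cells Hps3 ranged from 15.1 to 15.7 CPM in the duct and from 14.5 to 15.9 CPM in TEBs, with a difference of -0.03 (SE 0.30, edgeR FDR 0.99). The ratio of Cp counts to Hps3 counts went from 6.60 ± 0.82 to 1.12 ± 0.87 between duct and TEB of basal cells (SD, n = 3 each) and from 6.12 ± 0.11 (SD, n = 2) to 1.501 ± 0.29 (SD, n = 3) between those of luminal cells. The library kit does not mark strand, so reads on the shared bases cannot be assigned to either gene by strand.

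The membrane ferroxidase hephaestin (Heph), a multicopper oxidase related to ceruloplasmin, had another distribution. Heph was at 50.2, 48.1 and 61.5 CPM in basal duct and at 52.5, 48.8 and 54.9 CPM in basal TEB, which overlapped. It was at 0.979 and 12.5 CPM in luminal duct and at 1.93, 2.99 and 1.16 CPM in luminal TEB. Heph was higher in basal than in luminal cells by 2.99 on the log2 scale in ducts (SE 0.79, edgeR FDR 0.0167; 0.072 in the fit of duct groups alone) and by 4.68 in TEBs (SE 0.72, edgeR FDR 0.00046). Per length, Cp exceeded Heph in basal duct, at 35.6 ± 9.37 against 8.98 ± 1.21 RPKM (SD, n = 3), and stood below it in each basal TEB library, at 3.32 ± 2.67 against 8.77 ± 0.517 RPKM (SD, n = 3). In luminal cells Cp was the higher of the 2 in every library. The basal values of Cp chose the gene, so its order against Heph in basal cells is a description.

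**Figure D2:**
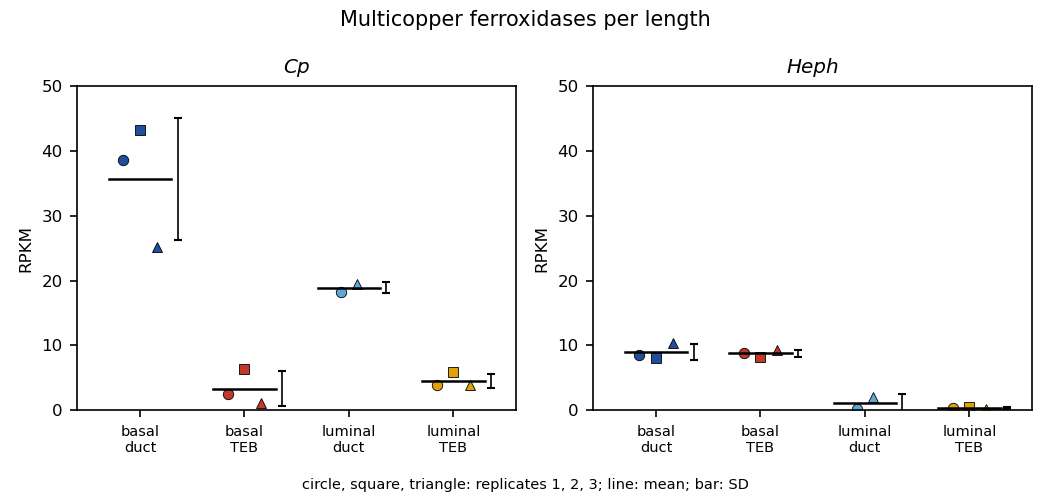
The panels plot the RPKM (CPM per kilobase of transcript) of Cp and Heph on the same scale, 1 point per library, with the mean as a line and 1 SD as a bar. Cp is at 35.6 RPKM in basal duct and 3.32 in basal TEB, the groups by which it was chosen. Heph is at 8.98 and 8.77 there.

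Lactoferrin mRNA was high in luminal cells and nearly absent from basal cells. Ltf (chromosome 9, 111019292 to 111042766) had 6092 and 2290 counts in luminal duct (139 and 94.2 CPM) and 230, 782 and 558 counts in luminal TEB (5.16, 14.9 and 10.7 CPM). The basal duct libraries held 1, 3 and 82 counts, and the basal TEB libraries 0, 1 and 0. Basal duct replicate 3, with the 82 counts, was at 2.10 CPM, or 1.81% of the luminal duct mean; its summed luminal progenitor markers were at 9.89% and its mature luminal markers at 1.05% of that mean. The part of luminal cells in this value was not tested.

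Between cell types Ltf passed the test in both structures. In ducts the basal minus luminal difference was -7.32 on the log2 scale (SE 1.23, edgeR FDR 0.00103), and it passed in all 21 alternatives. In TEBs (edgeR FDR 0.0011) the luminal libraries held 1570 counts against 1 in basal cells, a ratio of 1059 with an exact 95% interval from 190 to 41864 that covers counting error only. Between TEB and duct of basal cells the counts overlapped (edgeR FDR 0.177; 0.0243 with DESeq2). From luminal duct to luminal TEB the levels did not overlap, and the difference of -3.50 (SE 1.04) did not pass (edgeR FDR 0.12). It passed with limma voom (0.000641), in the fit of luminal groups alone (0.0282) and without basal duct replicate 3 (0.0151).

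Lipocalin 2 mRNA was abundant in all groups and higher in basal than in luminal cells. Lcn2 (chromosome 2, 32384637 to 32387739) was at 516, 510 and 416 CPM in basal duct and at 310, 299 and 304 CPM in basal TEB. It was at 234 and 276 CPM in luminal duct and at 108, 188 and 81.3 CPM in luminal TEB. Each group was separate from its neighbour in this order of means, basal duct, basal TEB, luminal duct and luminal TEB. Lcn2 was higher in basal than in luminal cells of TEBs by 1.28 on the log2 scale (SE 0.26, edgeR FDR 0.00339), which passed in 20 of 21 alternatives (not with library size alone, 0.0882). In ducts the difference was 0.92 (SE 0.30, edgeR FDR 0.0447), and this passed in 10 of 21 alternatives, and not in any fit that left out 1 of the basal duct or luminal duct libraries (FDR 0.0549 to 0.177). It was also lost without basal TEB replicate 2 (0.0548) or 3 (0.0616), without luminal TEB replicate 1 (0.0572), with library size alone (0.0861) and on removal of both basal TEB replicate 1 and luminal duct replicate 3 (0.0923).

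Between TEB and duct, Lcn2 did not pass in either cell type. The difference was -0.66 in basal cells (SE 0.26, edgeR FDR 0.278) and -1.02 in luminal cells (SE 0.28, edgeR FDR 0.101). Without luminal TEB replicate 2, the highest of its group, the luminal difference was -1.44 with an FDR of 0.0243, and the full set of libraries passed with DESeq2 (0.0105) and limma voom (0.0479). Lcn2 and Ltf are also proteins of neutrophil granules, and the gate took cells negative for blood lineage markers. Macrophage markers were still counted, with a sum of up to 78.1 CPM in basal duct. The 10 neutrophil markers summed to at most 2.26 CPM in any library, and all 10 were at 0 in both luminal duct libraries. S100a8 was at 0 in luminal duct and in all 6 basal libraries. It was counted in luminal TEB, where the 10 markers summed to 0.157 to 0.616 CPM. The part of neutrophils in the Lcn2 and Ltf values was not tested.

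For basal against luminal cells, the question was which of these genes follow the lineage. In ducts 2 of 8 members passed (Ltf lower and Lcn2 higher in basal cells), beside 22.3% of all genes tested (12.6% higher and 9.71% lower). There 4 of 8 did not overlap (Trf, Lcn2 and Ftl1 higher, Ltf lower), beside 46% (24.8% higher and 21.2% lower). In TEBs 3 of 8 passed (Ltf and Slc40a1 lower, Lcn2 higher in basal cells), beside 25.1% of all genes (13.2% higher and 11.8% lower). There 6 of 8 did not overlap (Lcn2, Fth1 and Ftl1 higher, Ltf, Slc40a1 and Tfrc lower), beside 49.8% (22.6% higher and 27.2% lower). Each group enters 2 of these 4 comparisons, so the comparisons share libraries.

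**Figure D3:**
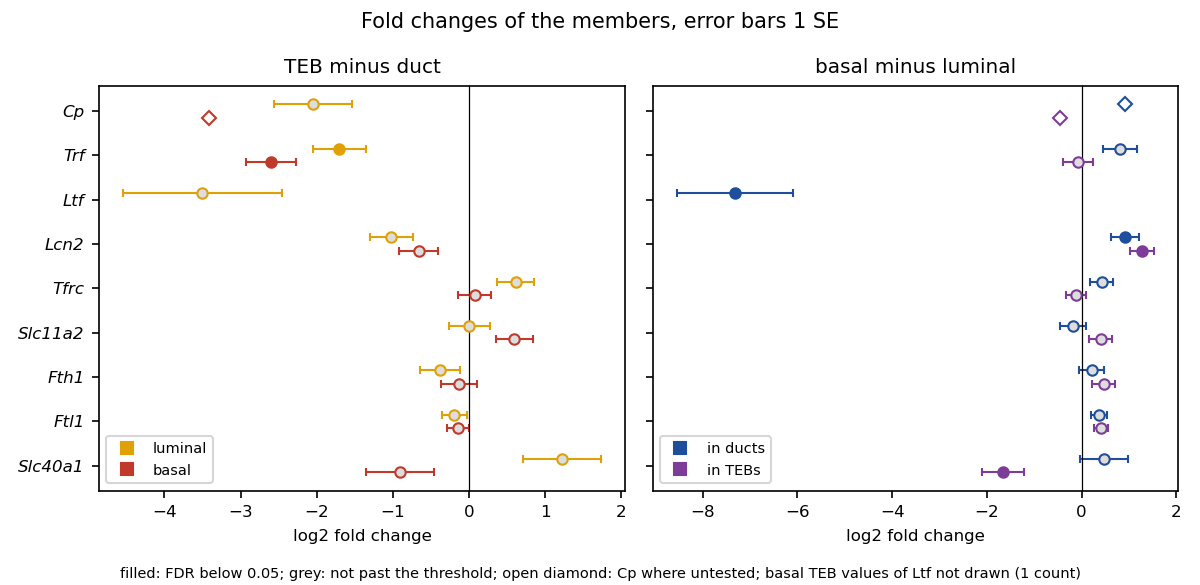
Points give the fitted log2 fold change of each gene with a bar of 1 SE, for TEB minus duct (left) and basal minus luminal cells (right, on a wider scale); filled points passed an FDR of 0.05 by edgeR, grey points did not, and open diamonds mark Cp where it was not tested. Trf lies at -1.70 and -2.60 on the left, the ferritins and Slc11a2 lie within 0.60 of 0 there, and Ltf in ducts lies at -7.32 on the right. Ltf is not drawn for basal TEB against basal duct or for basal against luminal TEBs, since basal TEBs held 1 count.

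For the importers among the members, Tfrc and Slc11a2, no difference passed the test. Tfrc (chromosome 16, 32608896 to 32632794) was at 92.7, 89.6 and 50.2 CPM in basal duct and at 80.3, 83.9 and 80.7 CPM in basal TEB. The groups overlapped, with basal duct replicate 3 below all TEB libraries and the other basal duct libraries above them. In luminal cells it was at 62.5 and 53.1 CPM in the duct and at 87.6, 86.9 and 90.7 CPM in TEBs, with every TEB library higher. The luminal difference of 0.61 (SE 0.24) did not pass the edgeR test (FDR 0.233), nor did the basal one of 0.08 (SE 0.21, FDR 0.922). Without basal duct replicate 3 the basal difference between TEB and duct was -0.16, and Tfrc was higher in basal than in luminal duct by 0.66 (edgeR FDR 0.026), against 0.42 (FDR 0.236) with it.

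Slc11a2, the proton-coupled iron importer (chromosome 15, 100387898 to 100424209), stayed between 20.3 and 43.0 CPM in all libraries. It was at 27.5, 21.02 and 20.3 CPM in basal duct and at 43.0, 27.0 and 34.0 CPM in basal TEB. The basal difference was 0.59 (SE 0.25, edgeR FDR 0.3) and the luminal one 0.01 (SE 0.27, edgeR FDR 1), with groups that overlapped in all 4 comparisons. Transcripts of Slc11a2 with and without an iron-responsive element are counted together here.

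For the ferritin subunits no difference between TEB and duct passed. Fth1 (chromosome 19, 9980600 to 9985111) was at 649, 566 and 575 CPM in basal duct, 476, 529 and 633 CPM in basal TEB, 692 and 340 CPM in luminal duct and 411, 394 and 381 CPM in luminal TEB. The luminal duct libraries thus lay on either side of all TEB libraries. The TEB minus duct difference was -0.13 in basal cells (SE 0.24, edgeR FDR 0.866) and -0.38 in luminal cells (SE 0.26, edgeR FDR 0.478), and the latter was 0.22 without luminal duct replicate 1. Ftl1 (chromosome 7, 45457944 to 45459886) ranged from 192 to 226 CPM in basal duct, 169 to 199 CPM in basal TEB, 147 to 175 CPM in luminal duct and 139 to 141 CPM in luminal TEB. Its differences were -0.15 in basal cells (SE 0.15, edgeR FDR 0.698) and -0.20 in luminal cells (SE 0.16, edgeR FDR 0.566).

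Ferritin mRNA of the heavy subunit exceeded that of the light subunit in every group. In RPKM the ratio of Fth1 to Ftl1 was 3.24 ± 0.48 and 3.26 ± 0.34 in the duct and TEB of basal cells (SD, n = 3 each), and 3.51 ± 1.29 (SD, n = 2) and 3.15 ± 0.14 (SD, n = 3) in those of luminal cells. In TEBs both subunits were higher in every basal than in every luminal library, by 0.47 for Fth1 (SE 0.24, edgeR FDR 0.18) and 0.42 for Ftl1 (SE 0.15, edgeR FDR 0.0576). Ftl1 passed in 9 of 21 alternatives, among them those without basal TEB replicate 1 (0.0467), luminal duct replicate 1 (0.0383) and luminal duct replicate 3 (0.039), and Fth1 in 4, among them those without either luminal duct library (0.0439 and 0.0445). With basal TEB replicate 1 and luminal duct replicate 3 both removed, Fth1 was at 0.55 (0.0209) and Ftl1 at 0.48 (0.0225). Without luminal duct replicate 1, Fth1 was higher in basal than in luminal duct by 0.81, and without luminal duct replicate 3 the difference was -0.21. Each of these fits leaves 1 luminal duct library. Ferritin genes have processed pseudogenes of near-identical sequence, so the assignment of their reads is uncertain.

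Slc40a1, the ferroportin gene (chromosome 1, 45908070 to 45926532), was lower in basal than in luminal TEBs. It was at 20.8, 22.9 and 20.96 CPM in luminal TEB and at 9.18, 5.94 and 5.40 CPM in basal TEB. The groups did not overlap, and the basal minus luminal difference of -1.66 on the log2 scale (SE 0.45, edgeR FDR 0.018) corresponds to a 3.16-fold lower level in basal TEB cells. This passed in 16 of 21 alternatives, with an FDR of 0.0504 and 0.0669 without basal TEB replicates 2 and 3 and of 0.0541, 0.0595 and 0.0545 without luminal TEB replicates 1, 2 and 3. In ducts the cell types overlapped, at 7.46, 15.4 and 15.6 CPM in basal and 5.44 and 13.1 CPM in luminal cells, with a difference of 0.47 (SE 0.50, edgeR FDR 0.539; the difference was -0.03 without luminal duct replicate 1).

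From duct to TEB, Slc40a1 differed with opposite signs and without passing a test in either cell type. The difference was 1.22 in luminal cells (SE 0.51, edgeR FDR 0.263) and -0.91 in basal cells (SE 0.45, edgeR FDR 0.376). The test of the difference between these gave -2.13 (SE 0.68, edgeR FDR 0.195). Without basal TEB replicate 1 and luminal duct replicate 3 the difference was -3.17. That fit rests on luminal duct replicate 1 alone, at 5.44 CPM against 13.1 CPM in the library left out. Macrophages are rich in ferroportin and ferritin, and the 9 macrophage markers summed to 27.9 to 78.1 CPM in basal duct, 31.3 to 40.4 in basal TEB, 13.8 to 52.9 in luminal duct and 6.97 to 20.98 in luminal TEB. The luminal TEB range of these markers overlapped that of luminal duct. The part of macrophages in the Slc40a1 values was not tested.

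Set against the hairpins printed above, none of the 4 members with a match (Fth1, Ftl1, Slc40a1 and Tfrc) passed between TEB and duct in either cell type by edgeR, DESeq2 or limma voom. By edgeR, 2 of the 4 (Tfrc and Slc40a1) had an unadjusted p below 0.05 in luminal cells, as did 16.6% of all genes, and 0 in basal cells, where 14.5% of all genes did. Messenger levels do not show translation, through which the 5′ hairpins act.

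Markers of other cells were measured beside these results. Fibroblast markers (8 genes) summed to 432 to 867 CPM in basal duct and 229 to 415 CPM in basal TEB, so they moved in the direction of Cp and Trf there. In luminal cells they summed to 6.03 CPM in duct replicate 1 and 259 CPM in replicate 3, against 11.7 to 54.0 CPM in TEB. Cp in those luminal duct libraries was 91.2 and 97.1 CPM. In the same order of groups, 6 endothelial markers summed to 11.6 to 208, 4.005 to 41.8, 1.02 to 27.5 and 1.55 to 11.4 CPM, 6 adipocyte markers to 4.07 to 185, 2.14 to 25.5, 0 to 85.5 and 0.695 to 9.46 CPM, with Adipoq at 0 in basal duct, luminal duct and luminal TEB, and 7 erythroid markers to 1.14 to 6.999, 0.252 to 5.05, 7.33 to 31.3 and 2.24 to 5.28 CPM. The part of these cells in the differences was not tested. Milk protein genes (8 genes, of which Wap was at 0 in basal duct, basal TEB and luminal duct) summed to 60.9 to 875, 348 to 536, 370 to 393 and 108 to 198 CPM.

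Beyond the members, 49 other genes of iron metabolism and 27 of copper metabolism were counted, of which 46 and 25 passed the filter. The 5 left out were Hephl1, Hjv, Ftmt, Sco2 and Dbh, with at most 28 counts in a library. Both lists were chosen with earlier results of these data known, so the shares called are descriptions. In basal cells, 0 of 46 iron genes differed between TEB and duct (9 with an unadjusted p below 0.05 by edgeR, where 14.5% of all genes had one; 1 passed by DESeq2 and 0 by limma voom), with a median log2 fold change of -0.10 against -0.03 over all genes. Of 25 copper genes, 3 were lower in basal TEBs and 0 higher (12% called, beside 1.32% of all genes, 1.16% lower and 0.167% higher), with a median of -0.08.

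Of these 3, Mt1 and Mt2 encode metallothioneins, small proteins that bind copper and zinc. Mt2 was at 564, 658 and 245 CPM in basal duct and at 124, 80.4 and 90.0 CPM in basal TEB, with no overlap although basal duct replicate 3 was well below its group. It fell by 2.32 on the log2 scale (SE 0.33, edgeR FDR 0.00545; 0.0514 without basal TEB replicate 3). Mt1 was at 612, 665 and 297 CPM in basal duct and at 108, 151 and 158 CPM in basal TEB, and fell by 1.92 (SE 0.28, edgeR FDR 0.00628). The copper amine oxidase gene Aoc3 was at 139, 120 and 92.0 CPM in basal duct and at 20.3, 19.3 and 10.2 CPM in basal TEB, and fell by 2.82 (SE 0.59, edgeR FDR 0.0445). Aoc3 passed in 10 of 21 alternatives and was lost when any 1 basal library (FDR 0.0658 to 0.211) or luminal TEB library (0.0656 to 0.0755) was left out. Of the 3 copper genes, 1 was called without basal TEB replicate 3.

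In luminal cells, 1 of 46 iron genes was higher in TEBs and 0 lower (2.17% called, a share near the 1.41% of all genes, 0.639% higher and 0.771% lower), with a median of 0.12 against 0.04 over all genes. The gene was Aco1, which encodes iron regulatory protein 1, a sensor that can bind the hairpins. The other iron regulatory protein gene of the list did not pass. Aco1 was at 53.6 and 40.8 CPM in luminal duct and at 91.1, 94.1 and 92.2 CPM in luminal TEB, and rose by 0.97 (SE 0.20, edgeR FDR 0.0406). It passed in 12 of 21 alternatives and was lost without luminal duct replicate 3 (0.171), luminal TEB replicates 1, 2 or 3 (0.135, 0.133 and 0.161), basal duct replicate 1 (0.0699) or basal TEB replicate 3 (0.0641), and on removal of both basal TEB replicate 1 and luminal duct replicate 3 (0.0952). Without either basal TEB replicate 1 or 2, 2 iron genes passed, where 436 and 287 of all genes did, against 245 in the main fit. Without luminal duct replicate 1, which leaves 1 luminal duct library, more iron genes and more of all genes passed. Of 25 copper genes 0 passed in luminal cells by edgeR, with a median of 0.18 (2 with an unadjusted p below 0.05, where 16.6% of all genes had one). By DESeq2 2 passed and by limma voom 1, which called 1247 and 351 of all genes against 245 by edgeR. Without basal TEB replicate 1, 1 copper gene passed, where 436 of all genes did. Some also passed without either luminal duct library, in fits that leave 1 library in that group.

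**Figure D4:**
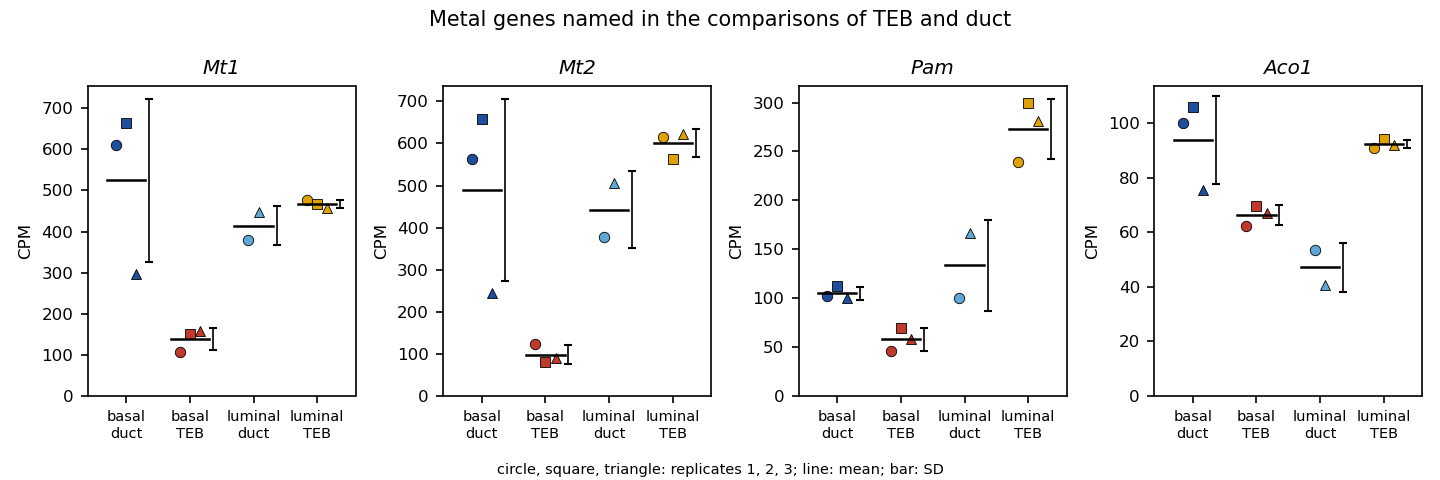
The CPM of Mt1, Mt2, Pam and Aco1 is plotted by library, with the mean as a line and 1 SD as a bar. Both metallothioneins lie below 160 CPM in the 3 basal TEB libraries and above 240 CPM in all others, and Pam and Aco1 are higher in each luminal TEB library than in each luminal duct library.

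Cell types differed in more of these genes. In ducts 5 iron genes were higher and 4 lower in basal than in luminal cells (19.6% called, beside 22.3% of all genes), and 3 copper genes were higher and 3 lower (24%). In TEBs the counts were 3 higher and 8 lower for iron (23.9%, beside 25.1% of all genes) and 3 higher and 6 lower for copper (36%). Haptoglobin (Hp), which binds free haemoglobin, was at 135.7 and 75.2 CPM in luminal duct and at 65.0, 30.5 and 31.5 CPM in luminal TEB, while no basal library was above 0.553 CPM. The basal minus luminal difference of Hp was -8.46 in ducts (SE 0.84, edgeR FDR 2.42e-05) and -6.87 in TEBs (SE 0.78, edgeR FDR 4.39e-05). For Alad, an enzyme of haem synthesis, it was -1.53 in ducts and -1.64 in TEBs (edgeR FDR 0.0032 and 0.00101). Aco1 was higher in basal than in luminal ducts by 0.99 (edgeR FDR 0.00374).

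Uptake genes went both ways between lineages. The ferric reductase gene Cybrd1 averaged 27.4 ± 5.69 CPM in basal TEB and 0.302 ± 0.269 CPM in luminal TEB (SD, n = 3), a difference of 6.49 (SE 0.93, edgeR FDR 0.000271). Steap2, another metalloreductase, was lower in basal than in luminal TEB, with a difference of -1.01 (SE 0.19, edgeR FDR 0.00186). Slc22a17, a receptor for lipocalin 2, was higher in basal than in luminal TEBs by 1.65 (SE 0.31, edgeR FDR 0.00189), as was Lcn2. In ducts the cell types overlapped in Slc22a17, which was at 42.2 and 113 CPM in the luminal libraries. Between basal TEB and basal duct the difference was 0.57 for Slc22a17 (edgeR FDR 0.415) and -0.66 for Lcn2, and neither passed. In ducts the metal importer genes Slc39a14 and Slc39a8 were higher in basal cells, Slc39a14 by 1.31 (edgeR FDR 0.0192; 0.0596 without basal duct replicate 1, 0.0538 and 0.114 without luminal duct replicates 1 and 3). Slc39a8 (edgeR FDR 0.0117) held 36, 208 and 184 counts in basal duct against 3 and 0 in luminal duct.

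Copper genes also went both ways between lineages, and the enzyme genes Moxd1, Loxl3 and Aoc3 were higher in basal cells. Moxd1, a relative of dopamine beta-hydroxylase, averaged 568 ± 40.5 CPM in basal TEB and 1.38 ± 0.588 CPM in luminal TEB (SD, n = 3), and was higher in basal cells by 9.95 in ducts and 8.68 in TEBs (edgeR FDR 7.46e-07 and 1.5e-07). The lysyl oxidase relative Loxl3 was higher in basal cells by 5.69 in ducts and 6.96 in TEBs (edgeR FDR 0.00271 and 0.000206), and Aoc3 by 7.49 and 3.81 (edgeR FDR 0.000108 and 0.000803). The copper importer gene Slc31a1 and the copper chaperone genes Atox1 and Cox17 were lower in basal cells of ducts, with log2 fold changes of -0.99, -0.86 and -1.40 (edgeR FDR 0.00753, 0.0229 and 0.0272). Without luminal duct replicate 1 these were -0.72, -0.40 and -0.78 (FDR 0.068, 0.264 and 0.266), and 3 of the 6 copper genes passed. Atox1 was also lost without basal duct replicates 1 (0.074) and 3 (0.0515), and Cox17 without basal duct replicates 1 (0.0804) and 2 (0.0806). In TEBs Mt1, Mt2 and the peptide-amidating enzyme gene Pam were lower in basal cells, with log2 fold changes of -1.75, -2.61 and -2.24 (edgeR FDR 0.00054, 9.66e-05 and 1.53e-05).

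Genes whose log2 CPM followed a member most closely over the 11 libraries were sought among 7863 genes for the 4 members whose group means spanned at least 2 log2 units. Cp was most like Cebpd (Pearson r = 0.973), Rbm12b2 (0.938) and Tcn2 (0.936). Trf was most like Nedd9 (0.957), Tcn2 (0.943) and Cebpd (0.937). Cebpd, which encodes a C/EBP transcription factor, averaged 234 ± 97.9 CPM in basal duct, 39.6 ± 21.9 in basal TEB and 48.3 ± 11.5 in luminal TEB (SD, 3 libraries each), and 123 ± 23.1 in the 2 luminal duct libraries. Tcn2, the vitamin B12 carrier transcobalamin, averaged 169 ± 20.2, 56.8 ± 20.1, 64.0 ± 9.44 and 114 ± 43.5 CPM (SD) in the same order. Ltf was most like Nbr1 (0.960), Sh3glb2 (0.956) and Mknk1 (0.955), and Lcn2 most like Pdlim3 (0.967), Igfbp5 (0.959) and Nr4a2 (0.955). These are descriptions over libraries that share their groups and depths, with the highest values picked from many genes.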

How the data were processed

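Libraries were made by the authors from total RNA with the TruSeq RNA v2 kit, and 80 bp paired-end reads were aligned to mm10 and counted by Entrez gene with Rsubread (featureCounts in the submitters' notes; versions not given in the sources used here) and its inbuilt RefSeq annotation. The deposited values are whole counts, not normalized, and the deposited gene lengths of the tables, in bases, were used for RPKM. In 11 of 11 libraries the sample's own table equalled its column in the series table, and 0 columns were left unused. Symbols came from a RefSeq table (GRCm38.p6) for 25275 of 27179 identifiers.

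Lowly counted genes were dropped by filterByExpr (CPM worth about 10 reads in as many libraries as the smallest group has, 15 reads in total), and the rest were scaled by TMM and fitted in R 4.3.3 with edgeR 4.0.16 (quasi-likelihood test, 1 model of 4 groups, Benjamini-Hochberg over 17370 genes, FDR 0.05). The SE is the absolute log2 fold change over the square root of F, and log2 CPM uses a prior count of 2. The study's methods give glmFit after estimateDisp, and the quasi-likelihood test stands in its place here. Alternatives were DESeq2 1.42.0 (Wald test and size factors), limma 3.58.1 voom, library size alone, other filters, the compared groups alone, the replicate block, mitochondrial genes removed, basal TEB replicate 1 and luminal duct replicate 3 removed, and each library left out. Intervals and counts of 0 cover counting error only.

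Named beyond the members and Hps3 are genes of the iron and copper lists past the threshold with a mean CPM of at least 1, at most 6 per list and comparison, and the 3 genes most like each member with a span of at least 2 log2 units, taken from genes whose log2 CPM averaged 4 or more. Rerunning all alternatives for Hps3 and the named list genes was added after seeing the data. Members, gene lists and marker lists were chosen with earlier results of these data known.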

Additional observations from a re-analysis of the deposited data

Results flagged for a closer look

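For 3 genes of the iron and copper lists (1 of 46 iron and 2 of 25 copper genes tested, beside 0.443% of all genes), the change from duct to TEB differed between basal and luminal cells by edgeR's interaction test with Benjamini-Hochberg adjustment. The lists were chosen with earlier results of these data known, so these shares are descriptions. The basal minus luminal difference was -1.47 on the log2 scale for Aco1 (FDR 0.0374), from a basal change of -0.50 and a luminal change of 0.97. It was -2.75 for Mt2 (FDR 0.033), from a basal change of -2.32 and a luminal change of 0.44, and -1.90 for Pam (FDR 0.0301), from a basal change of -0.86 and a luminal change of 1.04. Of 20 alternatives, Aco1 passed in 9, Mt2 in 12 and Pam in 12, all 3 with the same sign in each. All 3 lost the call when any 1 of basal duct replicates 1 and 2, basal TEB replicate 3 and luminal TEB replicates 1, 2 and 3 was left out, with an FDR of 0.0782 to 0.13 for Aco1, 0.0685 to 0.113 for Mt2 and 0.069 to 0.111 for Pam. Aco1 was also lost without basal TEB replicate 1 (0.0607) or luminal duct replicate 3 (0.0777) and without both (0.0686), Mt2 without luminal duct replicate 3 (0.0578) and Pam without basal duct replicate 3 (0.0522).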

How the results depend on the processing

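The fall of Trf in basal TEBs passed in all 21 alternatives. The luminal duct group rests on 2 libraries, and a common biological coefficient of variation of 0.704 limits the smaller differences.

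Calls between luminal TEB and duct were 1 member, 1 iron gene and 0 copper genes. Over all genes, calls there numbered 245 in the main fit, 10 with library size alone, 1247 with DESeq2 and 351 with limma voom. Members numbered 0 with library size alone, 2 with no low-count filter, 3 with DESeq2, 4 with limma voom, 2 with the groups compared only and 0 to 2 with a library left out. Iron genes numbered 0, 2, 5, 3, 4 and 0 to 7 in that order, 2 with a mean CPM of at least 1, and 0 without basal TEB replicate 1 and luminal duct replicate 3. Copper genes numbered 1 with no filter, 2 with DESeq2, 1 with limma voom, 3 without those 2 libraries and 0 to 3 with a library left out.

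In basal TEB against duct (1, 0 and 3 calls), DESeq2 gave 2 members and 1 iron gene, removal of the 2 libraries 1 iron gene, and leaving out a library 0 to 1 iron genes and 1 to 4 copper genes (1 without basal TEB replicate 3). In ducts (2, 9 and 6 calls), members numbered 1 with library size alone, 1 without the 2 libraries and 1 to 2 with a library left out, iron genes 4 with the groups compared only, and copper genes 3 with library size alone, 3 with the groups compared only and 3 to 8 with a library left out (3 without luminal duct replicate 1). In TEBs members (3 calls) numbered 5 with the groups compared only, 5 without the 2 libraries and 2 to 5 with a library left out. For the interaction (0, 1 and 2 calls), removal of the 2 libraries gave 1, 0 and 4, library size alone 0 iron and 1 copper gene, DESeq2 5 and 4, and leaving out a library 0 to 6 and 0 to 4. Libraries left out also alter the number of samples; otherwise the cause was not tested.

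The replicate number as a block gave 2 members and 0 iron genes in luminal TEB against duct (Cp FDR 0.0262), 1 member in ducts, and 0 iron and 1 copper gene in the interaction. With it, Lcn2 in ducts had an FDR of 0.0829, Atox1 0.0524 and Cox17 0.0619, Aoc3 in basal cells 0.0651, Aco1 in luminal cells 0.0772, and the interactions of Aco1 and Mt2 0.0819 and 0.0792. The study does not state whether same-numbered libraries share a pool of mice, and the main fit did not pair them. Correlations of same-numbered libraries ran from -0.07 to 0.16, and 4 of 15 exceeded 0.1. Those of other numbers ran from -0.16 to 0.14, and 19 of 30 best matches between groups had the same number. These values do not settle whether the numbers mark pairs, so calls lost with the block are less certain.

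Sign changes occurred in values that did not pass in the analysis above. With library size alone, which moves the median of all genes from 0.04 to 0.42 in luminal and from -0.03 to -0.16 in basal TEB against duct, and from 0.04 to -0.35 between cell types in TEBs, they were Ftl1 (0.18) and Hps3 (0.36) in luminal cells, Tfrc in basal cells (-0.054), Slc11a2 between cell types in TEBs (-0.078), and Lcn2 (-0.19), Fth1 (-0.21), Ftl1 (-0.45) and Slc11a2 (-0.013) in the interaction. In luminal TEB against duct, Slc11a2 was -0.061 with DESeq2 size factors, -0.061 with DESeq2, -0.033 with a mean CPM of at least 1, -0.00025 with limma voom, -0.014 with the groups compared only, -0.010 with mitochondrial genes removed and -0.090 to 0.086 with a library left out. With limma voom, Trf between cell types in TEBs was 0.062 and Ltf in the interaction 0.68. Without the 2 libraries, Fth1 was -0.21 in ducts, Trf 0.044 in TEBs and Hps3 0.014 in luminal cells. With a library left out, the ranges were -0.81 to 0.22 (Fth1, luminal), -0.16 to 0.20 (Tfrc, basal), -0.21 to 0.81 (Fth1, ducts), -0.030 to 1.24 (Slc40a1, ducts), -0.38 to 0.13 (Trf, TEBs), -0.16 to 0.042 (Hps3, TEBs), and, in the interaction, -4.34 to 1.57 (Ltf), -0.35 to 0.68 (Fth1) and -0.088 to 0.17 (Ftl1).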
